A study of Saccharomyces cerevisiae with 16 samples.

Results

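The genes described here are 10 nuclear genes of budding yeast that build or degrade glycogen, chosen by name: GLG1, GLG2, GSY1, GSY2, GLC3, GAC1, PGM2, UGP1, GPH1 and GDB1. They are 10 of the 6002 nuclear protein-coding genes in the gene table, and all 10 were among the 5733 that averaged 5 or more reads per base. The measurement is chromatin immunoprecipitation followed by sequencing (ChIP-seq) with an antibody from Millipore against H3K18ac, histone H3 acetylated on a lysine of its N-terminal tail. The cells were ZKY329, a CEN.PK strain of mating type a that carries a FLAG tag on SPT7 (SPT7-FLAG::natMX), the gene of a subunit of the SAGA acetyltransferase complex, so the tag was present at every time point. They were sampled while going through the Yeast Metabolic Cycle (YMC), at 16 time points from 48.32 to 51.95 h, with 1 library for each time point and no replicate. The labels give hours and no phase, so time points are named by number here and no phase was tested. No untagged strain, input or H3 library was used here, and a loss of acetylation and a loss of histone H3 from the DNA cannot be told apart. In a bulk culture, a lower signal in all cells and signal lost from a share of the cells cannot be told apart either.

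Glycogen is a branched polymer of glucose that yeast stores as a reserve carbohydrate, and in continuous culture it is laid down and used up in turn as the YMC proceeds. Its synthesis starts from glucose 6-phosphate, which is converted to glucose 1-phosphate and then to UDP-glucose. Glycogenin starts a chain on itself, glycogen synthase lengthens it, and a branching enzyme adds the branch points. Breakdown needs glycogen phosphorylase, which releases glucose 1-phosphate from chain ends, and a debranching enzyme, which removes the branches that stop it. Acetylation of histone H3 near gene starts generally accompanies transcription.

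The value of a gene, its relative coverage, is the mean number of reads over each base from 300 bp before to 300 bp after the start codon, divided by the mean over the nuclear genome in the same library, so that 1 is the genome mean. Libraries held 6521927 to 9359719 reads counted at a length of 51 bp, with a mean nuclear coverage of 27.5 to 39.4 reads per base. A member's window held 107 to 1136 reads, which gives a counting error of 2.97 to 9.65% of the value, not including any other error. The library of time point 4, on which much of what follows turns, had a mean nuclear coverage of 29.6, within the span of the other libraries. The members' mean profile had a Pearson r of 0.074 with mean nuclear coverage over the 16 libraries. Coverage is capped at 102 reads per base in every library, and this compresses differences where coverage is high.

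All 10 members had their lowest relative coverage at time point 4 (48.83 h), and the low value was found in the 300 bp upstream and in the 300 bp downstream of the start codon taken separately. In the 300 bp upstream of GLG2, however, time point 4 (1.015) was barely below time point 5 (1.018). Among all genes tested, 17.4% were lowest at time point 4, and 33.2% were highest there. In 7 members (GSY1, GSY2, GLC3, PGM2, UGP1, GPH1 and GDB1) the 3 lowest values were those of time points 3, 4 and 5, a pattern found in 1.9% of all genes. The highest value lay at time point 14 in 6 members (GLG1, GSY2, GLC3, PGM2, UGP1 and GPH1) and in 21.1% of all genes. GLG2 and GDB1 were highest at time point 11, GSY1 at 12 and GAC1 at 6.

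The range of a gene is the difference between its highest and lowest value over the 16 time points, on the scale of log2(relative coverage + 0.1), which understates changes of low values. The members' ranges were between 0.70 and 2.56 with a median of 1.69, and the median of all genes was 0.56. A range above 1 was seen in 7 members and in 19.9% of all genes, and a range above 2 in 4 members (GLC3, PGM2, GDB1 and GSY1) and in 1.95% of all genes. Time point 4 carried much of this: without it the members' median range was 0.86 against 0.50 for all genes, and 5 members and 13.5% of all genes kept a range above 1. Mean levels were ordinary, with a median over members of 0.74 on the log2 scale against 0.81 for all genes.

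A cubic curve over the time-point number, fitted to all 5733 genes with limma, was called at an adjusted p under 0.05 in 9 of the 10 members, all but GAC1. The same curve was called in 72.8% of all genes, so a call by itself sets the members little apart. Without time point 4 it was again called in 9 members, and in 73.2% of all genes. With an R2 of at least 0.6 required as well, it was called in 4 members (GLG2, GSY1, PGM2 and GPH1) and in 52.2% of all genes. Its spread is that around the curve, not between cultures, and neighbouring time points resemble each other, so the p-values may be too small. A cubic curve gives no test of the low value at time point 4. The spacing of the time points matters too: with the curve drawn over the hours, in which time points 1 to 13 crowd the first part, the call held in PGM2 alone (limma adjusted p = 0.0287), and in 43.4% of all genes.

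**Figure D1:**
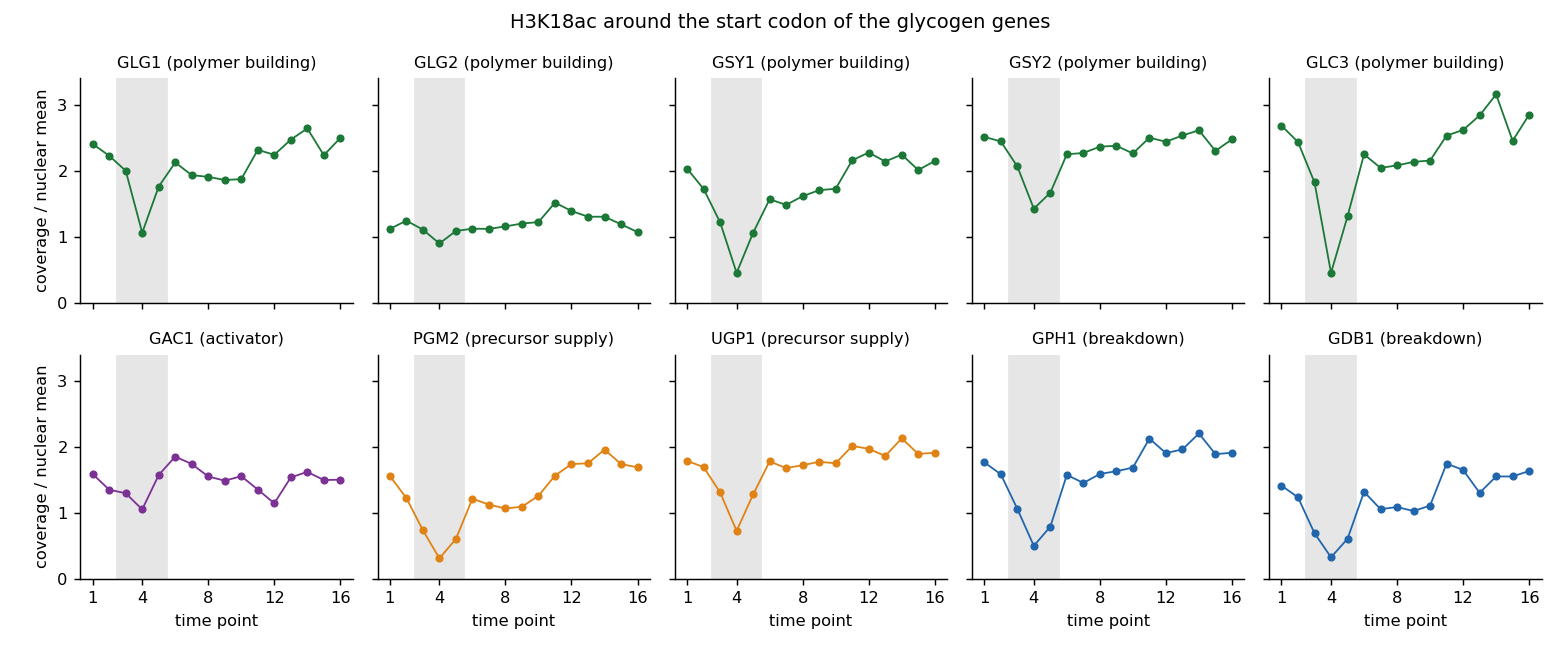
Relative coverage of the 10 members (y axis, times the nuclear mean) at the 16 time points (x axis, in order of sampling), 1 library for each point, with time points 3 to 5 shaded in grey. Every member is lowest at time point 4, from 0.309 in PGM2 to 1.43 in GSY2.

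The precursor of glycogen is supplied by PGM2, the major phosphoglucomutase, and UGP1, which makes UDP-glucose. PGM2 (YMR105C, chromosome XIII, 475897 to 477606, minus strand, R64 assembly as for all genes here) had relative coverages of 1.56, 1.22, 0.735, 0.309, 0.606, 1.21, 1.12, 1.07, 1.09, 1.26, 1.56, 1.74, 1.75, 1.96, 1.74 and 1.69 at time points 1 to 16. It was thus above the genome mean except at time points 3 to 5, and highest from 12 to 15. Its highest value was 6.34 times its lowest, or 3.23 times without time point 4, and its curve had the smallest p of the members (limma adjusted p = 0.00133, R2 = 0.69). UGP1 (YKL035W, chromosome XI, 369891 to 371390, plus strand) had 1.79, 1.69, 1.31, 0.726, 1.28, 1.78, 1.68, 1.72, 1.77, 1.75, 2.01, 1.97, 1.86, 2.13, 1.89 and 1.91. Outside time points 3 to 5 it stayed between 1.68 and 2.13, so the fold between its highest and lowest value was 2.93 with time point 4 and 1.66 without it (limma adjusted p = 0.017, and 0.186 in the 300 bp downstream alone).

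Chain initiation is carried out by the glycogenins GLG1 and GLG2, a pair of duplicated genes. GLG1 (YKR058W, chromosome XI, 552770 to 554620, plus strand) had 2.41, 2.23, 2.00, 1.06, 1.76, 2.13, 1.93, 1.91, 1.86, 1.87, 2.32, 2.24, 2.47, 2.64, 2.24 and 2.50. GLG2 (YJL137C, chromosome X, 154985 to 156127, minus strand) had 1.12, 1.24, 1.11, 0.898, 1.09, 1.12, 1.12, 1.16, 1.20, 1.22, 1.52, 1.39, 1.30, 1.30, 1.19 and 1.07, the flattest profile of the members. The ranges were 1.24 in GLG1 and 0.70 in GLG2, wider than those of 87.2% and 63.1% of all genes. Without time point 4 they came to 0.56 in GLG1 and 0.47 in GLG2, close to the median of all genes. The curve was called in GLG1 (limma adjusted p = 0.0206) and in GLG2 (limma adjusted p = 0.00564).

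Chain elongation is carried out by the glycogen synthases GSY1 and GSY2, of which GSY2 is the major form. GSY1 (YFR015C, chromosome VI, 174265 to 176391, minus strand) had 2.03, 1.72, 1.22, 0.453, 1.06, 1.57, 1.48, 1.62, 1.71, 1.73, 2.16, 2.28, 2.14, 2.25, 2.01 and 2.15. Its low value at time point 4 was about as far below the genome mean as its values from 11 to 16 were above it on the log2 scale, and its range of 2.10 was wider than that of 98.5% of all genes (limma adjusted p = 0.00485). GSY2 (YLR258W, chromosome XII, 660716 to 662833, plus strand) had 2.51, 2.44, 2.07, 1.43, 1.67, 2.25, 2.27, 2.37, 2.38, 2.26, 2.50, 2.44, 2.54, 2.61, 2.30 and 2.48, and so stayed above the genome mean throughout. Its range was 0.83 (limma adjusted p = 0.0195, but 0.0649 without time point 5).

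Branching depends on GLC3, the glycogen branching enzyme. GLC3 (YEL011W, chromosome V, 133120 to 135234, plus strand) had 2.68, 2.44, 1.82, 0.452, 1.31, 2.25, 2.04, 2.08, 2.14, 2.16, 2.53, 2.62, 2.84, 3.16, 2.45 and 2.85. It held both the highest value of any member, at time point 14, and the widest range, 2.56, which exceeded that of 99.9% of all genes and left a range of 1.21 without time point 4. A smooth curve followed it less closely than its range would show, with R2 = 0.455 (limma adjusted p = 0.0291). That call was lost without time point 5 (adjusted p = 0.0624) or without time point 14 (adjusted p = 0.0573).

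GAC1 encodes a regulatory subunit that directs the protein phosphatase Glc7 to glycogen synthase, which activates the synthase. GAC1 (YOR178C, chromosome XV, 667860 to 670241, minus strand) had 1.59, 1.35, 1.30, 1.05, 1.57, 1.85, 1.74, 1.55, 1.49, 1.56, 1.35, 1.14, 1.54, 1.62, 1.50 and 1.50. It departed from the other members: after the low value at time point 4 it was highest at 6 and 7, and it had a further low value at time point 12, where GSY1 was highest. A cubic curve did not describe it (limma adjusted p = 0.929), while a curve of 2 cosine and sine pairs was called (limma adjusted p = 0.0285). That alternative curve was called in all 10 members and in 79.2% of all genes.

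Breakdown depends on GPH1, glycogen phosphorylase, and GDB1, the debranching enzyme, both on chromosome XVI. GPH1 (YPR160W, 861306 to 864014, plus strand) had 1.77, 1.58, 1.06, 0.499, 0.791, 1.58, 1.45, 1.59, 1.63, 1.69, 2.13, 1.91, 1.96, 2.20, 1.89 and 1.91. Its highest value was 4.42 times its lowest, or 2.78 times without time point 4 (limma adjusted p = 0.00365). GDB1 (YPR184W, 902044 to 906654, plus strand) had 1.41, 1.23, 0.691, 0.326, 0.607, 1.32, 1.06, 1.09, 1.03, 1.11, 1.75, 1.65, 1.30, 1.55, 1.55 and 1.63. It was below the genome mean at time points 3, 4 and 5 alone, and its highest value was 5.36 times its lowest (2.88 times without time point 4, limma adjusted p = 0.00833). The range of 1.94 in GPH1 was wider than that of 97.7% of all genes, and the range of 2.12 in GDB1 wider than that of 98.6%.

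**Figure D2:**
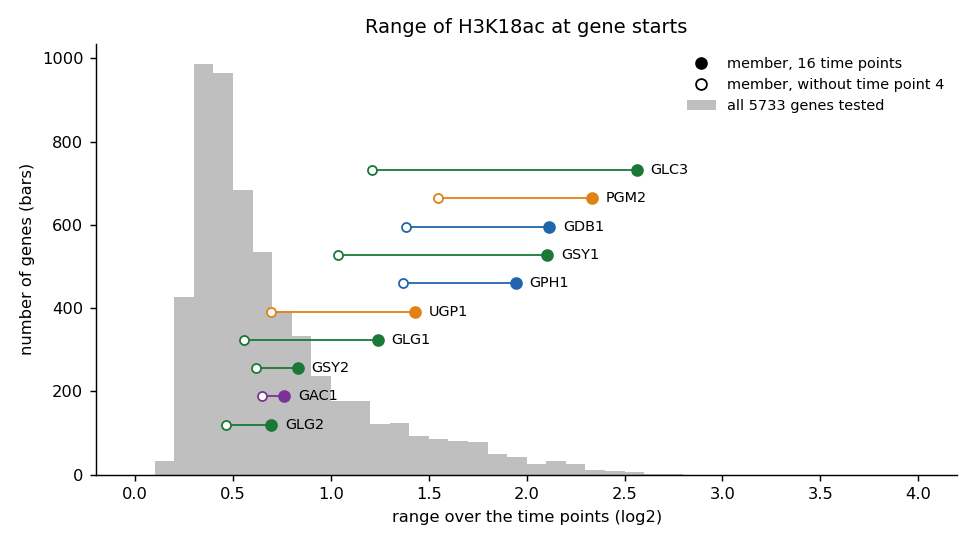
Range over the time points (x axis, log2 units) of each member, with all 16 time points as filled points and without time point 4 as open points, over the distribution of all 5733 genes (bars, y axis in genes), with members in order of range and coloured by synthesis (green), precursors (orange), breakdown (blue) and activator (purple). GLC3 has the widest range (2.56) and GLG2 the narrowest (0.70). The points of every member move to the left without time point 4, which must be so because each is lowest there.

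In order of median relative coverage the members were GSY2 (2.37), GLC3 (2.34), GLG1 (2.18), UGP1 (1.78), GSY1 (1.73), GPH1 (1.66), GAC1 (1.52), GDB1 (1.27), PGM2 (1.24) and GLG2 (1.17). The ranges over the time points of neighbours in this order overlapped. The profiles ran close together: over the 45 pairs of members the median Pearson r across the 16 time points was 0.924, and over the 36 pairs without GAC1 it was 0.945, with GSY1 and UGP1 the closest pair (0.982). The lowest was that of GAC1 with GLG2 (0.053). Without time point 4 the medians were 0.832 over the 45 pairs and 0.889 over the 36. The points share their libraries, and the values are descriptions.

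The synthesis genes (GLG1, GLG2, GSY1, GSY2 and GLC3) and the breakdown genes (GPH1 and GDB1) were then set against each other, with each gene centred on its own mean over the 16 time points on the log2 scale. The groups followed the same course, both lowest at time point 4, with a Pearson r of 0.966 between their means (0.951 without time point 4). At time points 3, 4 and 5 the synthesis genes averaged -0.17, -1.11 and -0.39 and the breakdown genes -0.56, -1.48 and -0.83. The breakdown genes were thus lower in relative terms by 0.39, 0.38 and 0.44. At time points 3 and 5 all 5 synthesis genes lay above both breakdown genes, but at time point 4 GSY1 and GLC3 lay below them. At time points 11 and 15 the centred order was turned round, with all 5 synthesis genes below both breakdown genes. The synthesis means were 0.26 and 0.13, and the breakdown means 0.52 and 0.36. Because each gene is centred, positive differences at some time points must be balanced by negative ones at others. That the order turned somewhere is therefore not a separate result. The centred breakdown mean was the higher at every time point from 10 to 16, though synthesis minus breakdown was only -0.003 at 13. Between time points 6 and 10 the groups differed by at most 0.13.

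Single genes of the groups interleaved in range: GLC3 (2.56) lay above both breakdown genes, and GSY1 (2.10) lay between GPH1 (1.94) and GDB1 (2.12). The range of the mean was 1.44 for synthesis and 2.00 for breakdown, and the difference between them ranged over 0.70. The synthesis group holds the flat GLG2 and GSY2, and the breakdown group has 2 genes, so no test was made. With GAC1, PGM2 and UGP1 counted among the synthesis genes, the difference at time point 4 was 0.39. The difference depended on the processing: it was 0.10 with a constant of 1 in place of 0.1 before taking logs, and 0.22 with a correction for the cap on coverage. Uncentred, synthesis genes lay on average 0.43 above breakdown genes on the log2 scale. Their uncentred mean was the higher at every time point, by 0.16 at 11, 0.20 at 15 and 0.87 at 5.

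**Figure D3:**
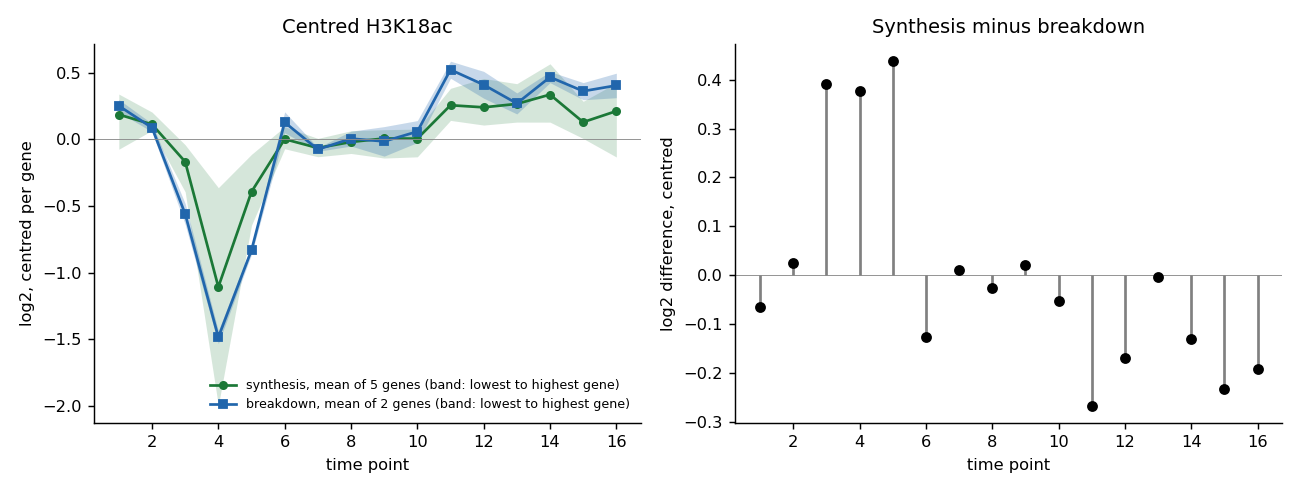
Mean centred log2 relative coverage (y axis) of the 5 synthesis genes and the 2 breakdown genes at the 16 time points (x axis) on the left, with bands from the lowest to the highest gene, and synthesis minus breakdown (log2) on the right. Both means are lowest at time point 4, at -1.11 for synthesis and -1.48 for breakdown. The centred breakdown mean is above the centred synthesis mean at every time point from 10 to 16, by most at 11 and 15.

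Duplicated genes of the pathway differed in range. GSY1 had a range of 2.10 and GSY2 of 0.83, with profiles alike in shape (Pearson r 0.951). On the log2 scale GSY1 lay 1.46 below GSY2 at time point 4 and 0.10 below it at time point 12. GSY2 had the higher mean coverage, 72.8 reads per base against 55.1 in GSY1, and so lay nearer the cap of 102. With a correction for that cap the ranges were 2.90 in GSY1 and 1.54 in GSY2. GLG1 and GLG2 were less alike (Pearson r 0.664), with GLG1 above GLG2 by 0.22 at time point 4 and by 1.15 at time point 16.

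PGM2 has a minor duplicate, PGM1, which is not one of the 10. PGM2 had a range of 2.33 and PGM1 of 0.40, and the range of PGM1 was still 0.40 without time point 4. PGM2 lay 1.75 below PGM1 at time point 4 and 0.30 above it at time point 14. PGM1 stayed between 1.26 and 1.69 times the genome mean, and its cubic curve was not called (limma adjusted p = 0.0771). Its 3 lowest values were nevertheless those of time points 3, 4 and 5, and a curve of 2 cosine and sine pairs was called (limma adjusted p = 0.00548).

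**Figure D4:**
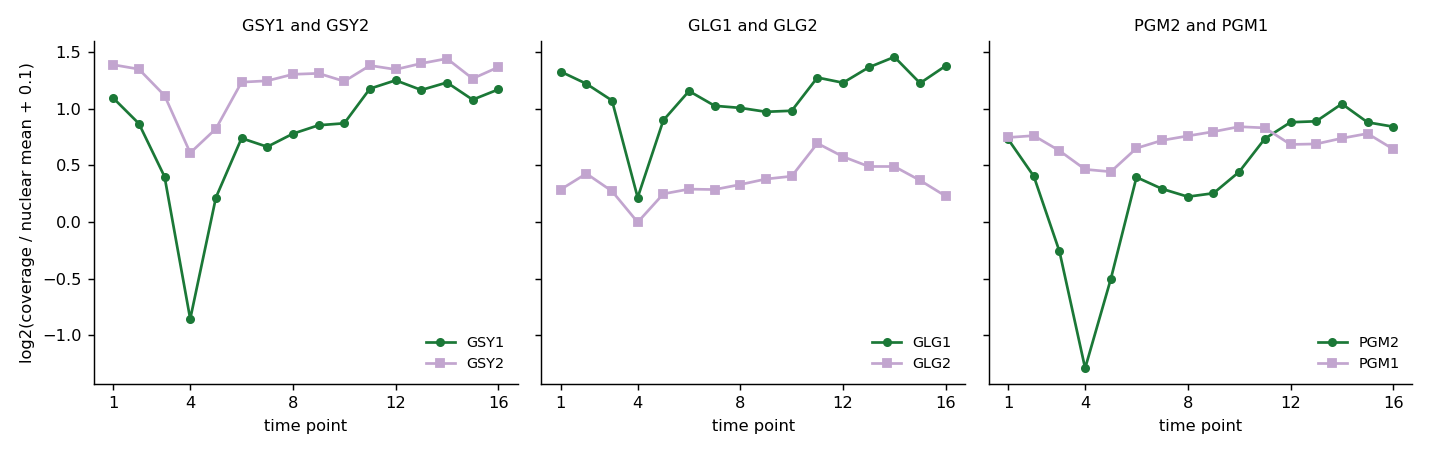
Log2 relative coverage (y axis) of duplicated genes at the 16 time points (x axis), 1 library for each point. The pairs are GSY1 and GSY2, GLG1 and GLG2, and PGM2 and PGM1. As for the ranges, a constant of 0.1 was added to the relative coverage before taking logs. GSY1 and PGM2 lie far below their duplicates at time point 4. Before taking logs, the relative coverages there are 0.453 against 1.43 in GSY2 and 0.309 against 1.28 in PGM1.

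The change was wide around the gene starts, and narrower farther into the gene and from 700 to 400 bp before the start codon. In bins of 100 bp, the median range over the members was 1.18 from 600 to 500 bp before the start codon, 1.93 from 300 to 200 bp before it, 1.77 in the first 100 bp of the coding region, 1.38 in the third 100 bp, and 1.09 from 900 to 999 bp after the start codon. Farther upstream, from 900 to 800 bp before it, the median range was again wide (1.72), but 6 of 10 members were lowest at time point 4 there, and GLG1 and GLG2 ran the other way, with 3.38 and 3.39 at time point 4 and 1.28 and 1.29 at time point 14. All 10 members were lowest at time point 4 in each of the first 2 bins of the coding region, and 3 of 10 were from 900 to 999 bp. The share of all genes lowest at time point 4 in single bins was not determined, so these counts have no background beside them. The steepest change of those shown was in PGM2, from 200 to 100 bp before the start codon, with 0.165 at time point 4, 1.16 at 9 and 2.13 at 14. In the 100 bp before the start codon GLC3 had 0.334, 2.22 and 3.48 at the same time points. GSY1 had 0.425, 1.74 and 2.80, and GPH1 0.496, 1.85 and 2.87, both from 200 to 100 bp before it.

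**Figure D5:**
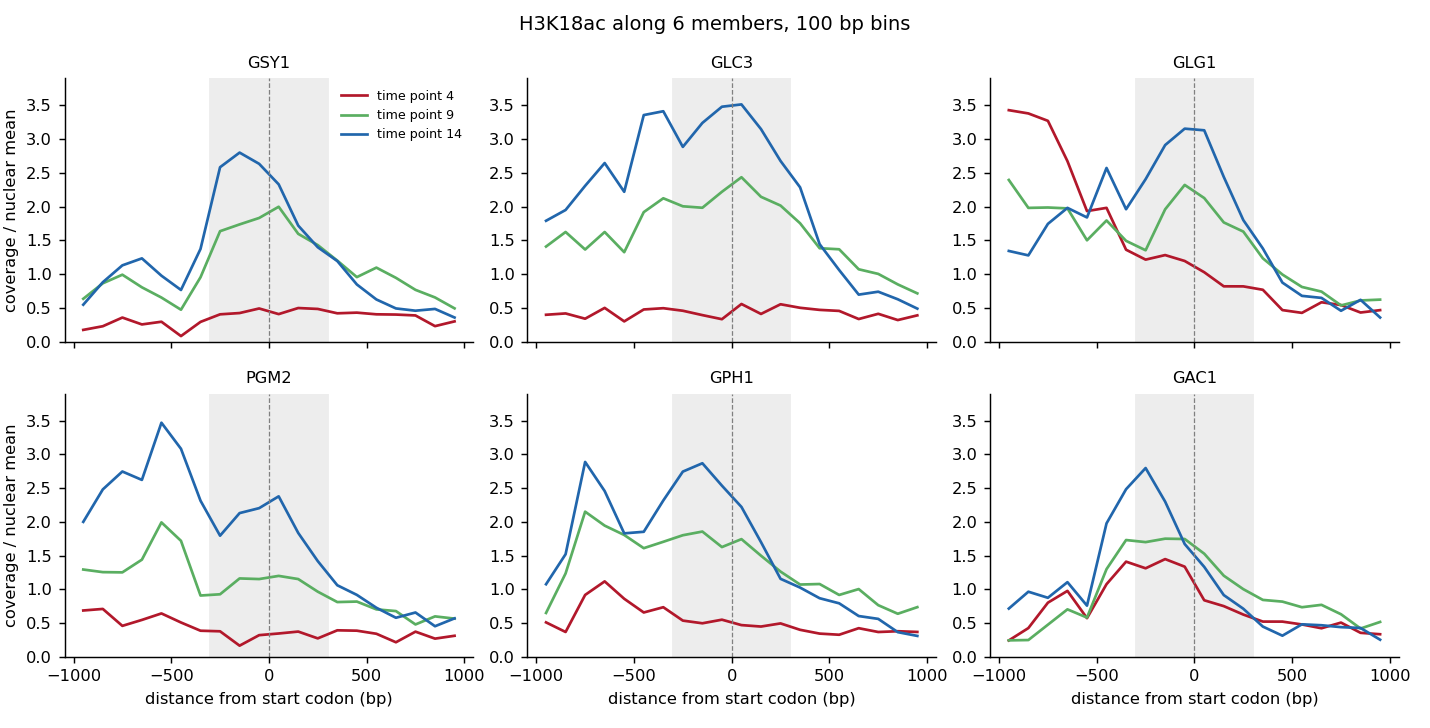
Relative coverage (y axis, times the nuclear mean) in bins of 100 bp by distance from the start codon (x axis, bp) for GSY1, GLC3, GLG1, PGM2, GPH1 and GAC1 at time points 4, 9 and 14, with the 300 bp on either side of the start shaded in grey. The lines of time points 4 and 14 are apart around the start and come together within the gene, while far upstream of GLG1 time point 4 is the highest (3.43 against 1.34 at time point 14).

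Within the coding region, from 300 bp after the start codon to its end, the members moved less. In 5 members (GLC3, PGM2, UGP1, GPH1 and GDB1) the body was lowest at time point 4, as the start was. The share of all genes with the body lowest there was not determined. The body of GLG2 was instead highest at time point 4 (1.53), and that of GLG1 at time point 5 (1.16). The median range of the body was 0.79 over the members, against 0.61 for all genes. The coverage of the gene body was highest between time points 7 and 10 in 6 members (GSY1, GSY2, GLC3, UGP1, GPH1 and GDB1), before the starts reached their own highest values, and 37.1% of all genes of at least 600 bp were highest there. GSY1 is an example: its body had 0.878 at time point 8 and 0.572 at time point 14, while its start had 1.62 at 8 and 2.25 at 14. In PGM2 the body and the start moved together (Pearson r 0.914), and in GLG1 they moved in opposite directions (-0.797).

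The ratio of start to body gives the contrast within a library and needs no division by the genome mean. Its median over the members was 1.07 at time point 4, 2.14 at time points 8 and 9, and 3.99 at time point 14, so at time point 4 starts and bodies stood at about the same level. Over 4653 genes of at least 600 bp the median ratio was 2.24 at time point 4, 1.71 at 8 and 2.34 at 14. The ratio at time point 4 was lowest in GLG2 (0.587) and highest in GAC1 (2.69), followed by GSY2 (2.62). At time point 14 it lay between 2.32 in GLG2 and 4.66 in GPH1.

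GLG1 and GLG2 sit in a duplicated stretch with the same order of genes, between a ribosomal protein gene upstream (RPS21A, RPS21B) and a gene of translation initiation downstream (TIF1, TIF2). These neighbours ran the other way. RPS21A had 2.69 at time point 4 and 0.890 at time point 14, and RPS21B 2.58 and 0.940, while GLG1 had 1.06 and 2.64, and GLG2 0.898 and 1.30. TIF1 had 1.49 at time point 4 and 0.437 at 14, and TIF2 1.08 and 0.432. All 4 neighbours were highest at time point 4 and lowest at time point 12. The last 300 bp of the glycogenin genes, next to TIF1 and TIF2, followed the neighbours, with 2.35 at time point 4 and 0.555 at time point 14 in GLG1, and in GLG2 with 2.28 at time point 4, its highest value there. TIF1 and TIF2 are nearly identical in sequence, and reads that map to both were discarded, so their levels are uncertain.

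Several other members lay beside genes with a course like their own. The nearest gene upstream was itself lowest at time point 4 for 6 of the 10 members, and the nearest downstream for 3 of 10, against 17.4% of all genes. AIP5, upstream of GSY1, is among the 6 but changed little (0.880 to 1.21, limma adjusted p = 0.701). UBC8, a gene of a ubiquitin-conjugating enzyme upstream of GLC3, had 0.724 at time point 4 and 2.53 at time point 14. YPK2, a protein kinase gene at the 3′ side of PGM2, had 0.682 and 2.37. Some windows overlap, so these values are not independent: those of PGM2 and YMR105W-A, whose starts are 458 bp apart on opposite strands, of UGP1 and AIM26, 526 bp apart, and of GLG2 and YJL136W-A, 42 bp apart. DPM1, upstream of GDB1, went against its neighbour and was highest at time point 4 (2.28).

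Of 17 further genes of glycogen metabolism and its control, 11 had a called curve, against 72.8% of all genes. Among the 17, 7 were lowest at time point 4, against 17.4% of all genes. The closest fits of the curve were those of SGA1, PCL7, GLC8 and PHO85. SGA1, a glucoamylase made during sporulation that also degrades glycogen, had its lowest value at time point 4 (0.344) and its highest at time point 15 (1.18; limma adjusted p = 9.05e-05, R2 = 0.841). PCL7, a cyclin of the kinase Pho85, had 2.71 at time point 2 and 2.06 at time point 13 (R2 = 0.794), and GLC8, a regulator of Glc7, 2.34 at time point 1 and 1.83 at time point 12 (R2 = 0.69). PHO85, whose kinase inactivates glycogen synthase with other cyclins, went against the members, with its highest value, 2.65, at time point 4 and its lowest, 1.82, at time point 10 (R2 = 0.656).

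The other subunits that direct Glc7 to glycogen or bind glycogen synthase can be set beside GAC1. GIP2 had 0.565 at time point 4 and 2.05 at time point 14, its lowest and highest values, and a range of 1.69, against 0.76 in GAC1 (limma adjusted p = 0.0143 for GIP2). PIG1 and PIG2 were also lowest at time point 4, with ranges of 0.84 and 0.81, and the curve was called in both. In PIG1, however, time point 4 (1.13) was barely below time points 10 (1.15) and 9 (1.16). In the 300 bp upstream alone PIG1 was lowest at time point 10. IGD1, an inhibitor of the debranching enzyme, was lowest at time point 4 (0.416) like GDB1, but highest at time point 6 (1.33), like GAC1. PSK2, a kinase that acts on Ugp1 and Gsy2, was highest at time point 4 (1.92) and lowest at time point 13 (0.669), and its curve was not called (limma adjusted p = 0.0528). PSK1, also among the 17, went the other way from PSK2. Its 3 lowest values were those of time points 3, 4 and 5, with 0.636 at time point 4, and its curve was not called either (limma adjusted p = 0.147).

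The 5 genes outside the members whose profile was most like the members' mean, by Pearson r over the 16 time points on the log2 scale, were USV1 (0.985), a zinc finger transcription factor, MDG1 (0.980), YGR204C-A (0.980), TDA10 (0.980) and CYB2 (0.979), the L-lactate dehydrogenase of mitochondria. YGR204C-A and TDA10 are neighbours with overlapping windows and count as a single observation. Without time point 4 the values were 0.959, 0.940, 0.939, 0.939 and 0.973 in the same order. An r of at least 0.9 with this mean was found in 144 of 5723 other genes (2.52%). The members themselves are part of that mean, and 8 of 10 reached 0.9, while GLG2 had 0.751 and GAC1 0.470.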

How the data were processed

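The 16 libraries were H3K18ac ChIP-seq samples, 1 per time point. By the study's methods, the authors trimmed reads (Trimmomatic 0.32), mapped them with Bowtie to the Ensembl release 91 genome (the submitters' processing notes list STAR), dropped multimapped and duplicated reads (Samtools) and deposited the coverage signal as reads per base from bedtools genomecov. It was used as deposited, with no division by H3.

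Start codons came from the RefSeq R64 table (strain S288C), whose chromosome lengths match the files. Mean coverage over 300 bp on either side was divided by the nuclear mean, and log2(value + 0.1) was fitted with limma 3.58.1 (R 4.3.3) as a third-degree polynomial in time-point number, with Benjamini-Hochberg adjustment over genes averaging 5 or more reads per base and calls at 0.05. The procedure was tried on simulated data with independent noise at each time point. It called 50% of genes given a curve of range 0.5 and 88% of those of range 1. Such noise leaves out the resemblance of neighbouring time points, so this trial cannot show whether the p-values are too small. All members, the further glycogen genes with the best fits or set beside a member, and the 5 most similar genes were named. Members and lists were chosen with earlier results of these data known. Alternatives changed the pseudocount, minimum, scaling, window, curve, ceiling, depth term and time points.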

Additional observations from a re-analysis of the deposited data

How the results depend on the processing

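Of the alternatives, the curve over the hours changed most: 2487 of all genes (4175 in the report), 1 of the 10 members (9) and 6 of the 17 other glycogen genes (11) were called. In the 300 bp downstream alone, 7 of the 17 other genes were called, and 64.2% of all genes (72.8% in the report). Synthesis minus breakdown at time point 4 was 0.10 with a pseudocount of 1, 0.22 with the ceiling correction and 0.28 with quantile normalization (0.38 in the report). Leaving out each time point in turn gave 3724 to 4204 calls among all genes, 7 to 9 among the members, 9 to 12 among the other glycogen genes, and 0.36 to 0.41 for synthesis minus breakdown at time point 4, which has no value without that time point. The 7 was without time point 5, when GSY2 and GLC3 were lost. The lowest value stayed at time point 4 in all 10 members under the pseudocounts, coverage minimums, scalings, windows and ceiling correction tried, except in GLG2 after quantile normalization. Scaling moved the median of all genes by up to 0.13 (log2, at time point 3 with quantile normalization). The 3 lowest values lay at time points 3 to 5 in 8 members rather than 7 after median-of-ratios scaling, quantile normalization or the ceiling correction, with 6.37%, 8.58% and 4.19% of all genes. No paired analysis was possible because each time point has 1 library. Depth limits each value to the counting error given, and the spread between cultures was not measured.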
